A study of Saccharomyces cerevisiae with 12 samples.

Results

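The 10 genes of iron uptake described here were followed in baker's yeast through a temperature shift in a TOR2 mutant strain and its wild type: the siderophore transporter genes SIT1, ARN1, ARN2 and ENB1, the reductive uptake genes FET3 and FTR1, the cell wall genes FIT1, FIT2 and FIT3, and the activator gene AFT1. They were chosen by name. Each of the 10 had a single plain probe set whose annotated symbol is that gene alone, out of the 9335 probe sets on the array, and all 10 had a signal above the lowest value on every array. MU is strain SH121, whose TOR2 is temperature-sensitive, and WT is strain SH100. Both strains grew in rich glucose medium (YPD). They were harvested at 25 °C (called 0 h) or once they had spent 2 h or 6 h at 37 °C, so the WT cultures of the later times were heated as well. Each of the 6 groups, MU 0 h, MU 2 h, MU 6 h, WT 0 h, WT 2 h and WT 6 h, had 2 independent cultures, A and B, with an Affymetrix S98 array each, 12 arrays in all. The mutant is represented by a single strain, and its allele is not named in the sources used.

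Yeast takes up iron in separate ways. In the reductive route, ferric reductases of the FRE family turn ferric into ferrous iron at the cell surface, and the multicopper oxidase Fet3 and the permease Ftr1, which work as a complex in the plasma membrane, carry it inside. In the other route, the transporters of the ARN family take up iron bound to siderophores, small iron chelators that baker's yeast does not make itself but takes from other microbes. The mannoproteins Fit1, Fit2 and Fit3 of the cell wall help to retain such siderophores. The transcription factor Aft1 turns these genes on when iron is scarce, and they are therefore known as the iron regulon. TOR2 codes for a large protein kinase with roles in cell growth and in the organisation of actin. The paper describes the growth role as shared with TOR1 and the actin role as unique to TOR2. It gives the defect of SH121 as specific to the unique function.

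The signals are linear MAS 5.0 intensities on a scale common to all arrays, whose lowest value is 1. The median signal of an array lay between 72 and 75.8, 4.33% to 6.38% of its probe sets stood at the lowest value of 1, and duplicate arrays had a Pearson r of 0.97 to 0.978 across probe sets on the log2 scale. Differences are on the log2 scale with their standard error (SE) or 95% interval from a limma fit to all 9298 probe sets that are not controls, and a gene is said to have risen or fallen where its adjusted p was under 0.05. With 2 cultures in each group, the number of arrays limits the precision, and a signal does not tell a change in every cell from a change in the share of cells that use the gene. HSP12, HSP26 and SSA4, genes of heat shock proteins, bear on the labelled shift. HSP12 averaged 295.9, 3010.9 and 4861.4 at 0, 2 and 6 h in MU and 308.8, 3371.3 and 4942 in WT. HSP26 averaged 70, 281 and 891.3 in MU and 50.4, 341.7 and 908.4 in WT. SSA4 rose less, with 83.6, 132.1 and 203.1 in MU and 84.6, 134 and 186.7 in WT. The signal of TOR2 itself averaged 184.5, 288.9 and 286.8 in MU and 248.1, 283.7 and 310 in WT. Its RNA is no check of the strain labels, since the mutation need not alter the amount of message.

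Most of the iron uptake genes were lower after the shift, in MU as in WT. At 2 h, 3 of the 10 fell in MU (SIT1, ARN2 and FET3), where 3.11% of all probe sets fell, and 5 of the 10 fell in WT (SIT1, ARN1, ARN2, FET3 and FTR1), where 3.27% did. At 6 h, 5 of the 10 fell in MU (SIT1, ARN1, ARN2, FET3 and FTR1), with 11.2% of all probe sets, and 6 fell in WT (the same genes and AFT1), with 9.49%. FIT2 alone rose, at 6 h in MU, where 10.8% of all probe sets rose. In the other comparisons with 0 h no member rose, against 4.87% of all probe sets at 2 h in MU, 5.38% at 2 h in WT and 9.84% at 6 h in WT. Counted by arrays alone, 9 of the 10 genes at 2 h and 7 at 6 h in MU had each array at 37 °C below each array at 25 °C, where 29.3% and 33.7% of all probe sets did, and 9 and 8 in WT, where 24.3% and 29.4% did. The reverse order was seen for 0 and 3 genes in MU, against 25.8% and 26.7% of all probe sets, and for 0 and 1 in WT, against 29.9% and 29.5%. The median log2 difference of the 10 was -0.44 at 2 h and -0.71 at 6 h in MU and -0.59 and -0.63 in WT, against medians of -0.03, -0.06, -0.02 and -0.04 over all probe sets in the same order. Within a strain the 2 h and 6 h comparisons share the 0 h arrays, whereas MU and WT have no array in common.

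**Figure D1:**
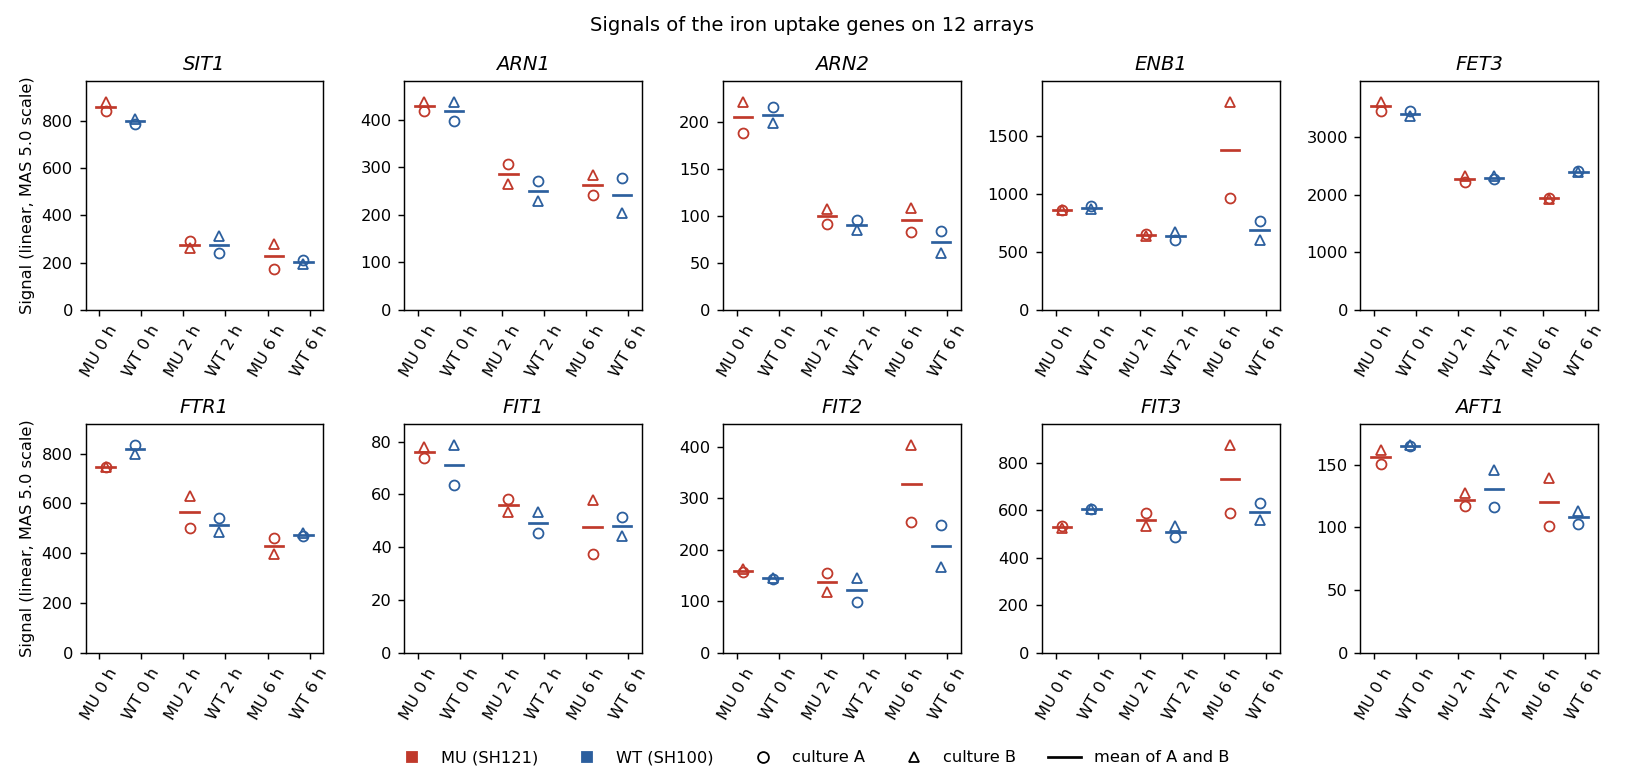
Signal of each gene (y axis, linear, from 0) on the 12 arrays by strain and time (x axis). Circles are culture A, triangles culture B, and bars the mean of the pair. SIT1, ARN1, ARN2, FET3 and FTR1 stood lower at 2 h and 6 h than at 0 h in each strain, whereas ENB1, FIT2 and FIT3 had their highest signal on the MU 6 h array of culture B.

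SIT1, which codes for a transporter of ferrioxamine and other hydroxamate siderophores, showed the largest fall of the 10 genes. In MU it had signals of 842.2 and 882.5 at 0 h, 291.3 and 260 at 2 h and 174 and 278.8 at 6 h, for cultures A and B. In WT the pairs were 790.2 and 809.6, 241.5 and 310.7, and 210.6 and 195.3. All 8 arrays at 37 °C therefore lay below all 4 arrays at 25 °C. The log2 difference from 0 h was -1.65 at 2 h and -1.97 at 6 h in MU and -1.58 and -2.01 in WT (SE 0.21, limma's adjusted p = 0.00417, 0.000852, 0.00483 and 0.000926). Between 6 h and 2 h the difference was -0.32 in MU and -0.43 in WT, and neither passed the test (adjusted p = 0.467 and 0.485 from limma), so the levels of the later times were not told apart.

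ARN2, the gene of a transporter for triacetylfusarinine, followed the same course. Its signals in MU were 188 and 221.2 at 0 h, 91.5 and 107.5 at 2 h and 82.7 and 108.2 at 6 h. In WT they were 216.1 and 198.5, 95.7 and 84.8, and 83.2 and 60.3. No array at 37 °C reached the lowest array at 25 °C, and the MU pair at 6 h overlapped with the MU pair at 2 h. ARN2 fell by 1.05 and 1.12 on the log2 scale at 2 h and 6 h in MU and by 1.25 and 1.58 in WT (SE 0.20, adjusted p = 0.0192, 0.00671, 0.00926 and 0.00188 from limma).

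ARN1, the gene of the ferrichrome transporter, changed less. MU had signals of 419.5 and 438.1 at 0 h, 307 and 264.8 at 2 h and 241.5 and 284.9 at 6 h, and WT had 398 and 438.2, 270.8 and 228.7, and 277.6 and 204.7. Here too every array at 37 °C lay below every array at 25 °C. The log2 difference was -0.59 at 2 h in MU, which did not pass the test (SE 0.16, adjusted p = 0.0695 from limma), and -0.71 at 6 h in MU, -0.78 at 2 h in WT and -0.83 at 6 h in WT, which did (adjusted p = 0.0187, 0.0283 and 0.0119 from limma).

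ENB1, which codes for the transporter of enterobactin, was the member of the ARN family that did not keep to this course at 6 h in MU. At 2 h its signals stood below those at 0 h, with 655.5 and 635.9 at 2 h against 862 and 863 at 0 h in MU, and 606.3 and 676.5 at 2 h against 895.3 and 872 at 0 h in WT. At 6 h MU had 970.8 and 1800.4, and WT had 771.1 and 607.1, still below both WT arrays of 0 h. Thus the MU pair at 6 h lay above all other arrays, though its cultures differed from each other by 0.90 on the log2 scale, and 88.5% of all probe sets differed less between these arrays. None of its comparisons passed the test. The log2 differences from 0 h were -0.42 at 2 h and 0.61 at 6 h in MU (SE 0.25, adjusted p = 0.363 and 0.118 from limma) and -0.50 and -0.40 in WT (adjusted p = 0.261 and 0.31).

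Both genes of the reductive route fell after the shift. FET3, the gene of the multicopper oxidase, had the smallest standard error of the 10 genes. In MU they were 3460.6 and 3616.5 at 0 h, 2225 and 2328.4 at 2 h and 1947.8 and 1926.2 at 6 h. In WT they were 3460 and 3365.3, 2271.4 and 2324.2, and 2404 and 2400.4. At 37 °C each pair lay below both pairs at 25 °C. The log2 difference from 0 h was -0.65 and -0.88 at 2 h and 6 h in MU and -0.59 and -0.51 in WT (SE 0.05, adjusted p = 0.000576, 7.12e-05, 0.00104 and 0.000901 from limma).

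FTR1, the gene of the permease that works with Fet3, had signals of 745.1 and 747.4 at 0 h, 501 and 629.2 at 2 h and 460.4 and 396.3 at 6 h in MU. WT had 834.5 and 798.9, 540.8 and 487.1, and 467.2 and 482.4. The time points of each strain did not overlap between 25 °C and 37 °C. FTR1 fell by 0.81 on the log2 scale at 6 h in MU, by 0.70 at 2 h in WT and by 0.81 at 6 h in WT (SE 0.12, adjusted p = 0.00299, 0.012 and 0.0035 from limma). The difference of -0.42 at 2 h in MU did not pass the test (adjusted p = 0.0738).

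The mannoprotein genes did not show a common pattern. FIT1 had signals of 73.9 and 78 at 0 h, 58.4 and 53.4 at 2 h and 37.6 and 57.7 at 6 h in MU. In WT it had 63.4 and 78.7 at 0 h, 45.2 and 53.4 at 2 h and 51.6 and 44.1 at 6 h. Its pairs at 37 °C lay below those at 25 °C in each strain, but the differences of -0.45 and -0.71 in MU and -0.60 and -0.62 in WT at 2 h and 6 h did not pass the test (SE 0.23, lowest adjusted p = 0.0591 from limma).

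FIT2 had its highest signals at 6 h. Its signals in MU were 156.5 and 163 at 0 h, 155 and 119.1 at 2 h and 253.9 and 403.8 at 6 h. In WT they were 144.4 and 146.3, 99.1 and 144.8, and 247.7 and 166.5. At 6 h each pair lay above the other arrays of its strain. The rise of 1.0 on the log2 scale at 6 h in MU passed the test (SE 0.29, adjusted p = 0.0431 from limma), and the difference of 0.45 in WT did not (adjusted p = 0.32). The MU call was lost when any single MU array of 0 h or 2 h, any WT array of 0 h or the MU 6 h array of culture B was left out, with an adjusted p of up to 0.216. Without the last of these the log2 difference was 0.66. The call was also lost without a variance trend, on only the MU 6 h and MU 0 h arrays and with the culture letters as a block, where the adjusted p was at most 0.119.

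FIT3, the direct neighbour of FIT2 in the genome, had signals of 536.3 and 526.9 at 0 h, 588.6 and 532.8 at 2 h and 587.9 and 876 at 6 h in MU, and of 608.3 and 605.5, 488.6 and 533.2, and 629.5 and 560.9 in WT. The array with the high value is again that of MU 6 h culture B. The log2 difference at 6 h was 0.43 in MU and -0.05 in WT (SE 0.17, adjusted p = 0.104 and 0.871 from limma). Without the other MU 6 h array, that of culture A, the difference in MU was 0.72 and passed the test (adjusted p = 0.00582), and that of ENB1 was 1.06 (adjusted p = 0.00432). These values rest on the single array of culture B.

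AFT1, the gene of the activator, had signals of 150.6 and 161.4 at 0 h, 116.9 and 127.3 at 2 h and 100.9 and 139.6 at 6 h in MU. WT had 164.9 and 165.7, 116.1 and 145.8, and 103 and 112.9. All arrays at 37 °C lay below all arrays at 25 °C. AFT1 fell by 0.65 on the log2 scale at 6 h in WT (SE 0.17, adjusted p = 0.0357 from limma). The other differences, -0.36 and -0.40 at 2 h and 6 h in MU and -0.39 at 2 h in WT, did not pass (adjusted p = 0.254, 0.139 and 0.215). The activity of Aft1 depends on its location in the cell and is not measured by its RNA.

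**Figure D2:**
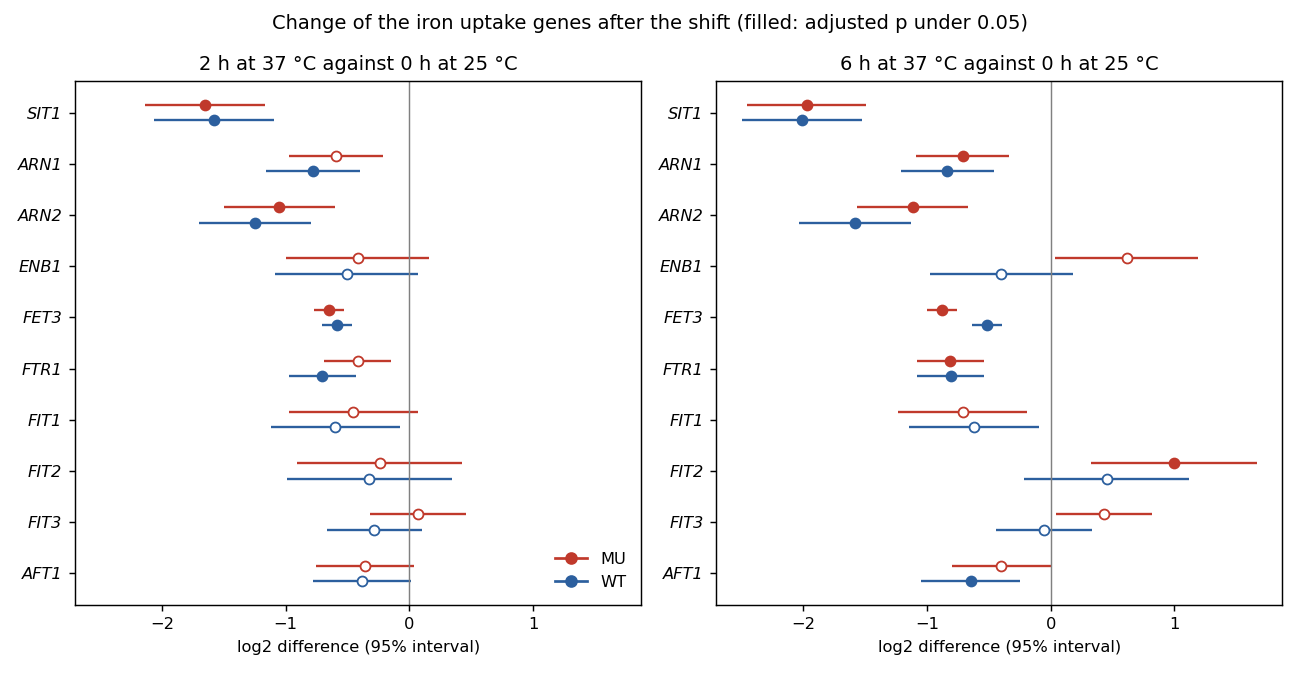
Log2 difference from 0 h (x axis) of each gene (y axis) at 2 h and at 6 h, MU above WT, as a point with its 95% interval from limma. Filled points passed an adjusted p under 0.05. SIT1 lay furthest below 0 in every comparison, and FIT2 at 6 h in MU was the only filled point above 0.

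The calls on SIT1 and FET3 did not depend on a single array, with each of the 12 arrays left out in turn. The log2 difference of SIT1 at 6 h then stayed between -2.31 and -1.63 in MU and between -2.06 and -1.96 in WT. That of FET3 stayed between -0.90 and -0.85 in MU and between -0.53 and -0.50 in WT. On only the arrays compared, SIT1 did not pass at 2 h in WT or at 6 h in MU (adjusted p = 0.069 and 0.0519 from limma). FET3 did not pass there at 2 h in WT or MU (adjusted p = 0.0654 and 0.06 from limma). The calls on ARN1 were lost without either WT 0 h array, either WT 2 h array or either MU 0 h array at 2 h in WT, without WT 0 h culture B at 6 h in WT, and without either MU 0 h array or MU 6 h culture A at 6 h in MU, with an adjusted p of up to 0.139. The 2 h calls on ARN2 were lost without any array of MU 0 h or MU 2 h in MU and without WT 0 h culture A or WT 2 h culture B in WT (up to 0.121). The 2 h call on FTR1 in WT was lost without either WT 0 h array or WT 2 h culture B (up to 0.0718). The call on AFT1 was lost without any array of WT 0 h, WT 6 h, MU 0 h or MU 2 h (up to 0.142).

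The comparison of MU with WT at the same time asks whether the level of these genes differs between the strains. With a single mutant strain, the TOR2 allele cannot be told apart from any other difference between the strains. None of the 10 passed the test at 0 h, 2 h or 6 h. The same held for nearly all probe sets: limma called 0.0323% of them at 0 h, 0% at 2 h and 0% at 6 h. At an unadjusted p under 0.05, limma had 0 of the 10 at 0 h, 0 at 2 h and 2 at 6 h, against 430, 508 and 812 of all 9298 probe sets. At 0 h the differences of the 10 genes lay between -0.21 and 0.12 and at 2 h between -0.08 and 0.21. For SIT1 the 95% interval ran from -0.40 to 0.57 at 0 h, from -0.47 to 0.50 at 2 h and from -0.36 to 0.61 at 6 h. These intervals leave room for a difference of either sign.

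The members with an unadjusted p under 0.05 at 6 h were FET3 and ENB1, named here after their values had been seen. FET3 averaged 1937 ± 15.3 in MU and 2402.2 ± 2.55 in WT (SD, n = 2 each), a log2 difference of -0.31 with an interval of -0.43 to -0.19 (adjusted p = 0.234 from limma). ENB1 averaged 1385.6 ± 587 in MU and 689.1 ± 116 in WT (SD, n = 2 each), a log2 difference of 0.95 with an interval of 0.38 to 1.53 (adjusted p = 0.418 from limma). FIT2 had a difference of 0.66 (interval -0.01 to 1.33) and ARN2 of 0.43 (interval -0.03 to 0.88). In all, 2 of the 10 genes (ENB1 and FIT2) had each MU 6 h array above each WT 6 h array and 2 (FET3 and FTR1) below, where 13.2% and 19.4% of all probe sets did.

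The change from 0 h was also compared between the strains. No member had a difference of changes that passed the test at 2 h or 6 h, and 0% of all probe sets did at either time. At an unadjusted p under 0.05, limma had 0 of the 10 at 2 h and 2 at 6 h, against 389 and 466 of all probe sets. The 2 members were ENB1, whose 6 h change in MU exceeded that in WT by 1.01 (interval 0.20 to 1.83, adjusted p = 0.95), and FET3, where it differed by -0.36 (interval -0.53 to -0.19, adjusted p = 0.634). For SIT1 the changes differed by -0.07 at 2 h and 0.04 at 6 h (SE 0.30). Averaged over the 3 times, the strains differed by -0.09 to 0.33 for the 10 genes and none passed the test, which 0% of all probe sets did. At an unadjusted p under 0.05, 1 of the 10 (FET3, -0.09) and 778 of all probe sets were found.

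**Figure D3:**
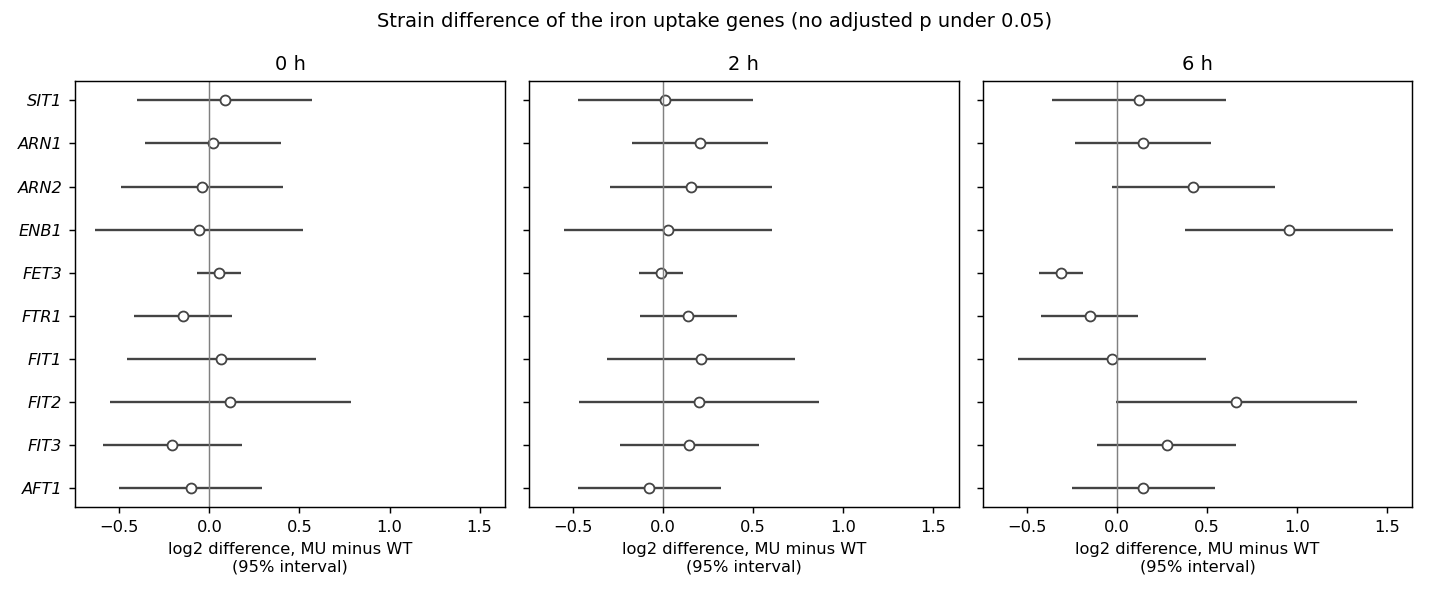
Log2 difference of MU minus WT (x axis) for each gene (y axis) at 0 h, 2 h and 6 h, with its 95% interval from limma. No point passed an adjusted p under 0.05. At 6 h the interval of ENB1 lay above 0 (0.38 to 1.53) and that of FET3 below (-0.43 to -0.19).

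The later part of the time course was compared directly as well. Between 6 h and 2 h no member passed the test in MU or WT, where 0.624% and 0.0645% of all probe sets did. At an unadjusted p under 0.05, limma had 4 of the 10 in MU and 1 in WT, against 1744 and 1070 of all probe sets. In MU these were FIT2 (1.24), ENB1 (1.03), FTR1 (-0.40) and FET3 (-0.23), and in WT FIT2 (0.78), where each number is the log2 difference. FIT2 and ENB1 thus stood higher at 6 h than at 2 h in MU, while the genes of the reductive route stood lower, without passing the adjusted test.

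Seen over all 12 arrays, the 10 genes fell into 7 that varied together and 3 that did not vary with them, a division made after the values had been seen and given without a test. Among SIT1, ARN1, ARN2, FET3, FTR1, FIT1 and AFT1, Pearson's r of the log2 signals lay between 0.74 and 0.96 over the 21 pairs (median 0.87). Among ENB1, FIT2 and FIT3 it was 0.81 to 0.86. Between these sets it lay between -0.53 and 0.32 (median -0.07). All points share the same arrays, and 4 of the 12 are at 25 °C. Over the 8 arrays at 37 °C alone, r among the 7 genes ranged from -0.41 to 0.84 (median 0.15). Among ENB1, FIT2 and FIT3 it was 0.89 to 0.92 on these 8 arrays, which include the MU 6 h array of culture B with the highest signal of each. Between the sets it lay between -0.86 and 0.41 at 37 °C (median 0.10), close to the median among the 7, so these 8 arrays alone do not show the 7 as a set.

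The genes outside the 10 with the most similar pattern were taken from 3619 well expressed probe sets, again by Pearson's r over the 12 arrays. ARN2 was most like FRE1 (r = 0.96), the gene of the main ferric reductase, and FET3 was most like FET4 (r = 0.97), the gene of the low-affinity iron transporter. SIT1 was most like ALT2 (r = 0.98), an alanine transaminase homologue, and ARN1 most like GDH1 (r = 0.96), the gene of a glutamate dehydrogenase. FTR1 and AFT1 were most like UTP20 (r = 0.99) and UTP8 (r = 0.94), both genes of ribosomal small subunit processing. FIT2 was most like ARG4 (r = 0.98), the gene of argininosuccinate lyase, ENB1 most like SCS3 (r = 0.94) and FIT3 most like YDR476C (r = 0.905). Over the 8 arrays at 37 °C alone, r with the same partner was 0.82 for ARN2, 0.74 for FET3, 0.77 for SIT1 and 0.86 for ARN1. It was 0.95 for FTR1, 0.92 for AFT1, 0.99 for FIT2, 0.97 for ENB1 and 0.98 for FIT3. For FIT2, ENB1 and FIT3 the 8 arrays include that of MU 6 h culture B, which had the highest signal of each. The partners were picked over 12 arrays that include these 8, so the values at 37 °C are no independent check. FIT1 had a mean signal of 57.95, below the median of the probe sets (76.35), and by the same rule on signal no gene is named for it.

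Further genes of iron handling were counted in 7 lists, to be read against all probe sets, of which 11.2% fell and 10.8% rose at 6 h in MU and 9.49% fell and 9.84% rose in WT. Of 18 other genes of the iron regulon, 3 fell and 1 rose at 6 h in MU, and 5 fell and 0 rose in WT. At 2 h, 4 fell in MU and 5 in WT, where 3.11% and 3.27% of all probe sets did, and 0 rose. Their median log2 difference at 6 h was -0.19 in MU and -0.27 in WT. Those that fell at 6 h were FRE1, FRE4 and FTH1 in MU, and the same genes with FET5 and VHT1 in WT. Of the 6 FRE genes, FRE1 and FRE4 fell, and FRE2, FRE3, FRE5 and FRE6 did not pass the test at 2 h or 6 h. FRE1, the gene of a ferric reductase of the plasma membrane, had signals of 397.4 and 351.8 at 0 h, 171.9 and 162.9 at 2 h and 129.9 and 132.5 at 6 h in MU, and of 343.6 and 269.8, 143.9 and 122, and 130.1 and 87.7 in WT. It fell by 1.51 on the log2 scale at 6 h in MU and by 1.54 in WT (SE 0.19, adjusted p = 0.00191 and 0.00196 from limma). FRE4, a reductase gene that acts on siderophore iron, fell by 1.77 and 1.63 (adjusted p = 0.00351 and 0.00555).

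Smaller changes passed the test for further genes of the regulon. FTH1, the vacuolar counterpart of FTR1, fell by 0.40 at 6 h in MU and by 0.45 in WT on the log2 scale (SE 0.09, adjusted p = 0.0148 and 0.0115 from limma). FET5, the vacuolar counterpart of FET3, fell by 0.47 in WT (adjusted p = 0.00637). VHT1, the biotin transporter gene, fell by 0.57 in WT (adjusted p = 0.0476). ISU1, which codes for the scaffold on which iron-sulfur clusters are built, rose by 0.51 at 6 h in MU (SE 0.15, adjusted p = 0.0474 from limma). Its highest signal, 769.3, was on the MU 6 h array of culture B, against 592.7 for culture A.

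TIS11, also known as CTH2, codes for a protein that promotes the decay of messages for iron-using proteins when iron is scarce. It did not pass the test in any comparison and is named here after its values had been seen. Its signals were 70.9 and 86.9 at 0 h, 37.3 and 38.2 at 2 h and 92.2 and 174.4 at 6 h in MU. In WT they were 75.2 and 77.7, 40.5 and 45.9, and 92.5 and 38.6. As with ENB1, FIT2 and FIT3, the highest array was that of MU 6 h culture B. FRE3, near FIT2, and FRE5, next to FIT3, which code for further ferric reductases, had signals of 18.9 to 35.7 and of 1 to 2.6 over the 12 arrays, and neither passed the test in any comparison.

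In the low-affinity and storage list, FET4 fell by 0.95 and 1.47 on the log2 scale at 2 h and 6 h in MU and by 0.97 and 1.0 in WT (SE 0.16, adjusted p = 0.0125, 0.000928, 0.0116 and 0.00532 from limma). Of the 6 genes it alone fell at 2 h or 6 h, and SMF1, a metal transporter gene, alone rose (0.59 at 6 h in WT, adjusted p = 0.0485). In MU SMF1 averaged 207.3 at 0 h and 226.4 at 6 h and did not pass. CCC1, the gene of the transporter that stores iron in the vacuole, which is named for its role, had log2 differences of 0.24 in MU and 0.30 in WT at 6 h (adjusted p = 0.321 and 0.23). Among the 7 genes of iron sensing, FRA1 and BOL2 (also called FRA2), whose products hold Aft1 back when iron is plentiful, rose at 6 h in MU, by 0.81 and 0.44, and in WT, by 0.62 and 0.62 (adjusted p = 0.0166, 0.0125, 0.0466 and 0.00367 from limma). GRX3, the gene of a glutaredoxin of the same complex, fell by 0.35 at 6 h in MU (adjusted p = 0.0262). In WT GRX3 averaged 322 at 0 h and 315.5 at 6 h and did not pass. AFT2, the paralogue of AFT1, had log2 differences of 0.22 and 0.05 (adjusted p = 0.466 and 0.908).

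Copper uptake, counted with 4 genes, supplies Fet3 with its metal. CTR1 fell by 0.96 on the log2 scale at 6 h in MU (adjusted p = 0.0458 from limma). MAC1, the gene of a copper-sensing activator, rose by 0.64 there (adjusted p = 0.0393). CTR3 rose by 1.29 at 2 h and by 1.0 at 6 h in WT (adjusted p = 0.0246 and 0.0336, from limma). The means of the other strain went the same way without passing the test. In WT, CTR1 averaged 309.4 at 0 h and 190.9 at 6 h, and MAC1 60.3 and 85.8. In MU, CTR3 averaged 43.7, 67.7 and 60.1 at 0, 2 and 6 h. No copper gene had a difference of changes between the strains that passed the test. Of 8 genes of heme synthesis, 2 fell and 1 rose at 6 h in each strain. HEM13 fell by 1.11 in MU and by 0.88 in WT, and HEM14 rose by 1.03 in MU and by 1.16 in WT. HEM12 fell by 0.44 in MU, and in WT it averaged 499.9 at 0 h and 402.4 at 6 h without passing the test. HEM1 fell by 0.60 in WT, and in MU it averaged 610.7 and 478 without passing. Of 16 genes of iron-sulfur cluster assembly, 1 fell at 6 h in MU and 2 in WT and 0 rose. The shares that fell were near the 11.2% and 9.49% of all probe sets. ISU1 and ISU2 were counted with the iron regulon and not in this list. ISU1, a scaffold gene of cluster assembly, rose at 6 h in MU, so the absence of a rise here depends on how the lists were split. CIA1 fell by 0.71 in MU and by 0.75 in WT, and NFU1 by 0.62 in WT. In MU NFU1 averaged 154.7 at 0 h and 124.7 at 6 h and did not pass.

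Of 12 genes of iron-using enzymes, 3 fell and 2 rose at 6 h in MU, where 11.2% and 10.8% of all probe sets did, and 4 fell and 3 rose in WT, where 9.49% and 9.84% did. LEU1, an iron-sulfur enzyme of leucine synthesis, fell by 1.56 on the log2 scale at 6 h in MU and by 1.13 in WT (SE 0.16, adjusted p = 0.00074 and 0.00307 from limma). SDH4 and SDH2, subunits of succinate dehydrogenase, rose by 0.81 and 0.76 in MU and by 0.58 and 0.65 in WT (adjusted p = 0.00456, 0.014, 0.0197 and 0.0284). No gene of these 7 lists passed the test between MU and WT at any time.

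**Figure D4:**
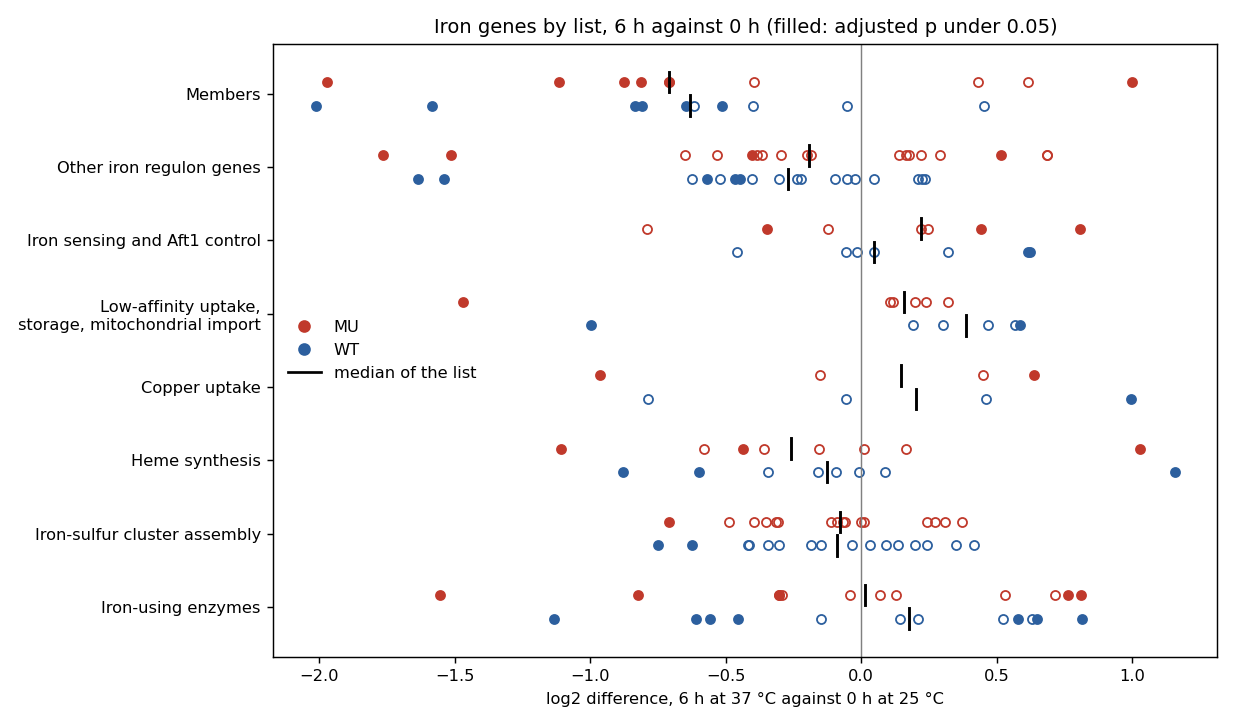
Log2 difference of 6 h from 0 h (x axis) for the 10 iron uptake genes and for the genes of 7 further iron lists (rows), MU above WT. Each point is a gene, filled where the adjusted p was under 0.05, and bars are list medians. The 10 genes had medians of -0.71 in MU and -0.63 in WT, below those of the other lists.

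Of 13 genes next to the 10 in the genome that are no members and have a probe set, 5 rose and 1 fell at 6 h in MU, and 4 rose and 1 fell in WT. Of all probe sets, 10.8% rose and 11.2% fell at 6 h in MU, and 9.84% rose and 9.49% fell in WT. Whether a neighbour and a member change together was not tested. HSP31, a stress gene beside FIT1, rose by 1.94 on the log2 scale at 6 h in MU and by 1.97 in WT (adjusted p = 0.000224 and 0.00026 from limma). HPA3, an acetyltransferase gene beside SIT1, rose by 1.07 and 1.48 (adjusted p = 0.00229 and 0.000707). AAC1, the gene of a mitochondrial ADP/ATP carrier beside FET3, rose by 1.02 and 0.60 (adjusted p = 0.000126 and 0.00135). UBP5, a ubiquitin protease gene beside FTR1, rose by 1.24 and 1.44 (adjusted p = 0.0204 and 0.0136), and CSS3, beside ENB1, rose by 1.43 in MU (adjusted p = 0.0087). EFM1, beside ARN1, fell by 1.58 and 0.94 (adjusted p = 0.00445 and 0.0359). The others, AVT2, COS8, SEN15, STL1, FRE5, HSF1 and RPB9, did not pass the test at 6 h.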

How the data were processed

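Total RNA of 12 yeast cultures was hybridised to Affymetrix S98 arrays. The deposited values are linear signal intensities, computed by the authors in MAS 5.0 and passed through scripts of their own. No source used here says how all arrays came to share a distribution. Genes were named from the platform's annotation (1 symbol for 6504 of 9335 probe sets, several for 328, none for 2503), and all 10 symbols were also found in RefSeq's yeast gene table. No sequences or genome were used here.

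Signals of 9298 probe sets, without 37 controls, were taken to log2 and quantile-normalized. limma 3.58.1 in R 4.3.3 was fitted to the 12 arrays in 6 groups (6 residual degrees of freedom, variance trend, smallest prior degrees of freedom 1.85), and p-values were adjusted after Benjamini and Hochberg over all 9298 in each of 12 comparisons. The study's rank method (RDAM) was not rerun; limma on its ranks was an alternative. An exact permutation of 2 against 2 arrays cannot give a p below 0.33, so none is given. The fit was tested on simulated data.

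The 10 genes, the lists and the alternatives were chosen with earlier results of these data known. Named by rule are the 10 genes, in each list up to 4 genes past the threshold with the largest change, the most similar gene of each member with a mean signal above the median, genome neighbours, HSP12, HSP26, SSA4 and TOR2. CCC1, AFT2, TIS11 and the FRE genes that did not pass were named for their role or position with their values known.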

Additional observations from a re-analysis of the deposited data

How the results depend on the processing

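The fit was repeated after scaling by medians, with 16 added to each signal, without the dimmest 25% of probe sets, without the variance trend, on ranks of 0 to 100, on only the arrays compared, with a replicate block, at an adjusted p under 0.10 and without each array. No member had a further probe set to try. Of the 20 calls on members, 7 held under every alternative that was run, and none changed direction. Over all alternatives of these calls, 351 of 400 stayed past the threshold. With only the arrays compared (fewer residual degrees of freedom), the count of members called was 1 for MU 2 h against MU 0 h, 2 for MU 6 h against MU 0 h and 0 for WT 2 h against WT 0 h. At an adjusted p under 0.10 it was 5 for MU 2 h against MU 0 h and 3 for MU 6 h against MU 2 h. Without the dimmest 25%, it was 2 for MU 6 h against MU 2 h (ENB1 and FIT2, higher at 6 h). With an array left out, a group of a single array is assumed to vary like the others. The count was then 2 to 6 for WT 2 h against WT 0 h, 0 to 1 for MU against WT at 6 h (ENB1, higher in MU by 1.40 without MU 6 h culture A, adjusted p = 0.0292 from limma) and 0 to 2 for MU 6 h against MU 2 h.

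Culture letters did not pair the arrays: the differences between cultures A and B correlated by -0.102 to 0.126 over the 15 pairs of groups (median -0.00813). With the letters as a replicate block, 5 members were called for MU 6 h against MU 0 h in place of 6, since FIT2 was lost. Of the 100 member values that did not pass the test, 27 of 1990 values under alternatives passed it and 62 changed sign. Of all probe sets, limma called 742, 2047, 804 and 1797 for MU 2 h, MU 6 h, WT 2 h and WT 6 h against 0 h. On only the arrays compared it called 87, 580, 51 and 668, and with an array left out as few as 221, 999, 274 and 796. At an adjusted p under 0.10 it called 1199 for MU 2 h and 1379 for WT 2 h. For MU 6 h against MU 2 h the 58 became 264 without the dimmest probe sets, 358 at 0.10, 24 without the trend, 35 on ranks, 20 with the block and 1 to 255 with an array left out. Between MU and WT at 6 h, 0 became 26 at most, with an array left out.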
